A study of Mus musculus with 3 samples.

Results

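The genes of the 3 nuclear RNA polymerases (Pol I, Pol II and Pol III) and of the factors that start and release them were examined in KO-actin cells. Every mouse gene with a symbol of the form Polr1, Polr2 or Polr3 followed by letters was taken, together with Ubtf, Rrn3, Taf1a, Taf1b, Taf1c, Tbp, Brf1, Bdp1, Cdk7, Cdk9, Ccnt1, Supt5 and Myo1c. This gave 41 genes of the 46603 in the count files, 28 of them Polr genes and 13 named one by one. The KO-actin line derives from mouse embryonic fibroblasts (MEFs) that lost the β-actin gene and were then made to express β-actin fused to a nuclear localization signal (NLS). All 3 libraries, numbered as replicates 1 to 3, carry this genotype, and the labels name no treatment or time and do not say whether the libraries came from separate cultures. There was thus 1 condition, and p-values between its libraries measure only a spread that may be technical. Libraries of knockout cells without the NLS-tagged protein, and of wild-type cells, were not analysed here.

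Pol I transcribes the ribosomal RNA precursor, Pol II the messenger RNAs and Pol III the transfer RNAs, 5S ribosomal RNA and other short RNAs. Each enzyme has its own large catalytic core and stalk, and the enzymes share a set of small subunits. Pol I and Pol III also have a pair of assembly subunits in common, and each polymerase is brought to its promoters by its own factors, with the TATA-binding protein taking part for all 3. Actin in the nucleus has been reported to associate with each of the polymerases, which is why their subunits are set side by side here.

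The libraries held 49932446, 49587453 and 44383636 counts in replicates 1, 2 and 3. Levels are given as CPM, which is a gene's count scaled for sequencing depth with TMM-adjusted library sizes, and levels of different genes are compared only as CPM per kb, which is CPM divided by the length in kilobases of the union of the exons of the gene. Because the transcripts used by these cells are not known, the order of genes per kb was also taken with the length of the longest transcript and with the median length of the protein-coding transcripts, and an order that these lengths turn is said to turn. Replicate 2 stood apart: the chi-square of 2 libraries' counts, averaged over the genes tested, was 11.1 for replicates 1 and 2 and 10.6 for replicates 2 and 3, against 3.72 for replicates 1 and 3. Actb, the gene of β-actin, had 1078, 1111 and 1066 CPM, and gene counts do not separate the tagged RNA from any RNA of the knocked-out locus. The 10 fibroblast markers had a summed level of 12186 to 13112 CPM, most of it from Vim (4562 CPM), Col1a1 (4057) and Fn1 (3578). Pdgfra (4.97 CPM) and Thy1 (0.836 CPM) were low, and Fap had 0, 0 and 1 counts. Of the 10, 8 had a mean of at least 1 CPM and 9 were above the floor of 3 counts in every library. Among markers of other cells, 2 of 5 epithelial (38.3 to 40.2 CPM in sum, nearly all Krt18), 1 of 5 blood (7.35 to 10.3 CPM), 2 of 3 endothelial (1.93 to 2.38 CPM), 1 of 2 muscle (9.41 to 11.2 CPM) and 1 of 4 pluripotency genes (0.547 to 0.696 CPM) were above it. Ptprc, Epcam and Cdh5 had at most 1 count in any library, but other genes of the same lists were higher. In replicates 1, 2 and 3, Cd68 had 357, 427 and 442 counts, Kdr 113, 110 and 79, and Krt18 1833, 1915 and 1703.

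All 41 genes were expressed. They had 10 or more counts in each library, as did 13814 of the 46603 genes in the count files. Each of the 41 had more than 3 counts, and at least 1 CPM, in each of the 3 libraries. The lowest single count among them was 442, for Taf1b in replicate 3. Mean levels ran from 10.1 CPM for Taf1a to 1047 CPM for Myo1c. Per kb, their median was 18.0, against 7.19 for the 12087 protein-coding genes tested, whose quartiles were 2.14 and 19.2. Of the 41 genes, 32 were above that median, 18 were above the upper quartile and 0 were below the lower quartile. In bulk RNA, the number of cells that express a gene and the RNA per cell cannot be told apart.

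**Figure D1:**
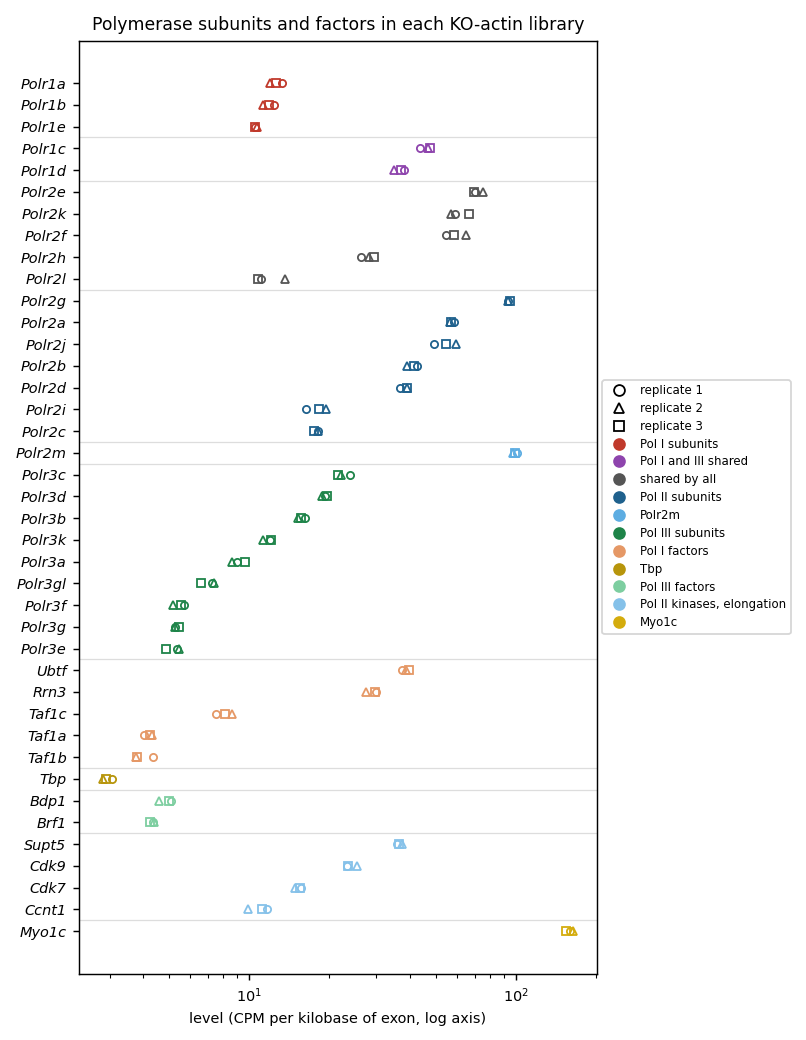
Level of 40 of the 41 genes (CPM per kb of exon, log axis) in replicate 1 (circle), replicate 2 (triangle) and replicate 3 (square), grouped and coloured by role. The points of a gene lie close together in comparison with the distances between genes, which reach from Tbp at 2.93 to Myo1c at 159.

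Promoter sequences of the largest Pol I and Pol II subunits, and of the exchangeable Pol III subunits Polr3g and Polr3gl, are shown because the levels of each pair are compared in what follows. Each is the 250 bases before the RefSeq transcription start on GRCm38.p6, written 5′ to 3′ on the strand of the gene. Capitals mark a TATA box core, an ETS-type motif, a GC box or a CCAAT box, or the reverse complement of these where they lie on the other strand. Each motif was searched on both strands, and none of their letter strings, spelt out with their counts further on, lies within another. The windows are chr6:71908803-71909052 (plus) for Polr1a, chr11:69758634-69758883 (minus) for Polr2a, chr13:81711014-81711263 (minus) for Polr3g and chr3:96594182-96594431 (minus) for Polr3gl.
Polr1a: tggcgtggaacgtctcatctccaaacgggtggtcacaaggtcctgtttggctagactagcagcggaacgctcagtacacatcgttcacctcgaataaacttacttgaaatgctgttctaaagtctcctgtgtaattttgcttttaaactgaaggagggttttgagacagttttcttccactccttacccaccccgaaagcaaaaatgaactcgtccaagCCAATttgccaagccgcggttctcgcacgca
Polr2a: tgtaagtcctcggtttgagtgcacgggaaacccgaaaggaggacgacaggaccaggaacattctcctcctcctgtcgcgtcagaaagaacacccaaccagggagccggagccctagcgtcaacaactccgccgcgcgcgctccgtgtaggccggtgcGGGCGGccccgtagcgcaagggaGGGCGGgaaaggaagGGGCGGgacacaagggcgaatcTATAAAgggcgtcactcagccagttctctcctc
Polr3g: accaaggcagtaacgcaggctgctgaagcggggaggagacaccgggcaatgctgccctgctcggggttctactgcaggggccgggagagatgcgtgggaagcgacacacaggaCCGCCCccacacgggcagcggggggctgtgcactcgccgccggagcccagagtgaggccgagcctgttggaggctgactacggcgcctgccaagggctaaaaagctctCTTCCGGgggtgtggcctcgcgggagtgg
Polr3gl: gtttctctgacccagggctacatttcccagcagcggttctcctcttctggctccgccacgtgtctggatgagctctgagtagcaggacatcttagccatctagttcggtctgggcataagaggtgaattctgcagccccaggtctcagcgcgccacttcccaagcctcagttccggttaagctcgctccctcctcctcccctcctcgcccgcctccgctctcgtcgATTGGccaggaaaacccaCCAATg

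The Polr2a window held a TATA box core beginning 33 bases before the start, and GC boxes beginning 93, 70 and 55 bases before it. The Polr1a window held a CCAAT box 31 bases before the start and none of the other letters searched. In Polr3g, the ETS-type motif lay on the other strand from 29 bases before the start and a GC box on the other strand from 137 bases before it. Polr3gl had CCAAT on its own strand 6 bases before the start and on the other strand 24 bases before it. RefSeq start regions of 300 bases, from 250 before to 50 after the start, matched 34 of the 41 genes, with 45 promoters in all. The ETS-type motif CCGGAAG on either strand was in 17 of these 45 (37.8%), against 17.5% of 12210 promoters of tested protein-coding genes and 8.86% of all 32851 promoters. The GC box GGGCGG was in 68.9%, against 63.6% and 35.7%, and CCAAT in 28.9%, against 38.0% and 37.4%. The TATA box core TATAAA was found in 2 of the 45 (4.44%, in Polr2a and Polr2c), against 6.81% and 13.6%, and the palindromic NRF1 motif in 0, against 2.08% and 0.971%. The observed over expected CpG ratio of the 45 promoters had a median of 0.837, against 0.758 for tested protein-coding genes and 0.384 for all promoters. These letters describe the windows and do not show binding.

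A divergent neighbour was present for some of the genes. For 13 of the 41 (31.7%), a protein-coding gene on the opposite strand started within 1000 bp, against 13.6% of the protein-coding genes tested. Its start lay upstream or at most 300 bp past the start of the gene, so that the ends of such a pair may overlap. Polr1c and Yipf3 were 26 bp apart, Polr3c and Rnf115 36 bp, Polr2b and Noa1 63 bp, Polr3a and Rps24 67 bp, and Tbp and Psmb1, a proteasome subunit gene, 137 bp. No test was made of this difference.

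Of the subunits found in Pol I alone, Polr1a, Polr1b and Polr1e had similar, moderate levels. Polr1a, the catalytic subunit (chromosome 6 of GRCm38, 71909053 to 71984935, plus strand), had 13.3, 11.9 and 12.6 CPM per kb in replicates 1, 2 and 3, a mean of 12.6 ± 0.684 (SD, n = 3). Polr1b, the second-largest subunit, had 12.4, 11.3 and 11.8, a mean of 11.9 ± 0.568. Polr1e, which belongs to the dimer that helps Pol I to start and to elongate, had 10.5, 10.7 and 10.5, a mean of 10.6 ± 0.129. Cd3eap, Twistnb and Znrd1, further Pol I subunits whose older symbols keep them out of the 41 genes, spread more widely, at 15.1 ± 0.500, 3.82 ± 0.208 and 39.2 ± 0.860 CPM per kb. Polr1a was 1.07-fold, 1.06-fold and 1.07-fold above Polr1b in replicates 1, 2 and 3, but the order turned (0.945-fold) with the length of the longest transcript. With the median length of protein-coding transcripts Polr1e was the highest (25.8 CPM per kb), so no order of Polr1a, Polr1b and Polr1e is given.

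Of the 7 subunits shared between polymerases, Polr2l was below the median of the 41 genes and the others were above it. Polr1c and Polr1d form the assembly platform of both Pol I and Pol III, and had 46.1 ± 2.15 and 36.6 ± 1.48 CPM per kb. Polr1c was above Polr1d in 3 of 3 libraries (1.26-fold), but the ratio was 0.970 with the longest transcript as length, and 21.9% of the 50-base windows of Polr1d mRNA also occur in other genes, mainly Gm12751. Of the 5 subunits common to all 3 enzymes, Polr2e had the highest level, with 71.7 ± 2.85 CPM per kb. It was followed by Polr2k (61.0 ± 5.27), Polr2f (59.6 ± 5.25) and Polr2h (27.9 ± 1.53). Polr2k and Polr2f did not differ beyond their spread. Polr2f moved to the top (231 CPM per kb, with Polr2e at 167) with the median length of protein-coding transcripts. Polr2l, a small zinc-binding subunit, was lowest under each length, at 11.1, 13.6 and 10.8 CPM per kb, which put Polr2e 6.10-fold above it. That gap was 14.2-fold with the median length of protein-coding transcripts. Shared windows make Polr2k (24.3%), Polr2l (20.9%) and Polr2h (14.5%) uncertain, since it is not given how reads matching several genes were counted.

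The subunits of Pol II alone ran from Polr2c at 17.9 to Polr2g at 94.1 CPM per kb. Polr2a (chromosome 11, 69733997 to 69758637, minus strand), whose C-terminal repeat domain is phosphorylated during the transcription cycle, had 58.4, 56.8 and 57.1 CPM per kb, a mean of 57.4 ± 0.877. This corresponds to 413, 401 and 404 CPM, with the highest library 1.03-fold the lowest. Polr2b, the second-largest subunit, had 42.4, 39.2 and 41.3 CPM per kb, so that Polr2a was 1.40-fold above it, in 3 of 3 libraries.

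Among the smaller Pol II subunits, Polr2g led. It had 93.8, 93.6 and 94.8 CPM per kb, the steadiest level of the 41 genes (SD of log2 CPM 0.010). Polr2g and Polr2d form the stalk that holds the emerging RNA, and Polr2g was 2.46-fold above Polr2d (38.3 ± 1.21) in 3 of 3 libraries. Polr2j and Polr2c, the assembly pair of Pol II, stood apart from each other, at 54.5 ± 5.07 and 17.9 ± 0.351 CPM per kb. Polr2i, which takes part in start site choice and proofreading, had 18.0 ± 1.54. Neither Polr2c and Polr2i nor Polr2j and Polr2a differed beyond their spread, and Polr2c was at 59.5 CPM per kb with the median length of protein-coding transcripts. Polr2g led under each of the lengths. Exons of Polr2i (26.8% of their length), Polr2c (18.1%) and Polr2j (15.9%) overlap genes of the other strand (Tbcb, Dok4 and Lrwd1), and whether counting used the strand is not given in the sources used here. Polr2m, which codes for Gdown1, a partner of a fraction of Pol II molecules, had 101, 97.4 and 99.3 CPM per kb and was 1.73-fold above Polr2a in 3 of 3 libraries.

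The levels of the Pol III subunits were graded. Polr3c had 22.5 ± 1.22 CPM per kb by the length of all exons, followed by Polr3d (19.2 ± 0.468), Polr3b (15.7 ± 0.438) and Polr3k (11.8 ± 0.466). Polr3c and Polr3f sit in the trimer that makes contact with the initiation factors, Polr3d and Polr3e form a dimer used in initiation and termination, and Polr3k acts in RNA cleavage and termination. Polr3a, the catalytic subunit (chromosome 14, 24448696 to 24487058, minus strand), had 9.02, 8.64 and 9.68 CPM per kb, a mean of 9.11 ± 0.524. It was thus below Polr3b, the second-largest subunit, which was 1.72-fold higher in 3 of 3 libraries. The lowest were Polr3f (5.48 ± 0.265), Polr3g (5.33 ± 0.0983) and Polr3e (5.23 ± 0.325), whose order was not the same in every library. Partners of a dimer or trimer were unequal: Polr3d was near the top of the list and Polr3e at its end, and Polr3c was high while Polr3f was among the lowest. With the median length of protein-coding transcripts Polr3f passed Polr3a (14.01 and 11.3), while Polr3e stayed last.

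Polr3g and Polr3gl code for exchangeable versions of the third subunit of the initiation trimer. Polr3g is known for high levels in pluripotent and transformed cells and Polr3gl for its presence in most differentiated tissues. Both were expressed here. Polr3g (chromosome 13, 81673843 to 81711013, minus strand) had 1034, 1027 and 954 counts, or 5.26, 5.28 and 5.44 CPM per kb. Polr3gl (chromosome 3, 96577872 to 96594181, minus strand) had 577, 584 and 470 counts, or 7.24, 7.40 and 6.61 CPM per kb. Polr3gl was higher per kb in each library, by 1.38-fold, 1.40-fold and 1.21-fold, with a mean log2 ratio of 0.41 ± 0.11 (SD). An exact two-sided sign-flip permutation test gave p = 0.25, the smallest that 3 libraries allow. The difference rests on gene length, since with the median length of protein-coding transcripts the log2 ratio was 0.0043, with p = 1 by the same exact test. In CPM, which does not take length into account, Polr3g was the higher (20.97 ± 0.387 and 11.3 ± 0.670). Of the pluripotency markers, Nanog had 27, 26 and 30 counts, while Zfp42, Pou5f1 and Sox2 had at most 2 counts in any library.

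The 3 polymerases were then compared by the median level of the subunits that each has to itself. For Pol II (7 subunits), the median was 42.4, 39.2 and 41.3 CPM per kb in replicates 1, 2 and 3, a mean of 41.0 ± 1.64. For Pol I (3 subunits), it was 12.4, 11.3 and 11.8, a mean of 11.9 ± 0.568. For Pol III (10 subunits), it was 10.5, 9.94 and 10.9, a mean of 10.4 ± 0.473. The Pol II values were far above those of the other enzymes, while those of Pol I and Pol III lay close together without overlap. The Pol II median was above that of Pol I by 3.41-fold, 3.47-fold and 3.49-fold (log2 ratio 1.79 ± 0.02, SD). It was above that of Pol III by 4.04-fold, 3.94-fold and 3.80-fold (log2 ratio 1.97 ± 0.04, SD). Pol I was above Pol III by 1.18-fold, 1.14-fold and 1.09-fold (log2 ratio 0.18 ± 0.06, SD). Each of the 3 pairs held its order in 3 of 3 libraries, and each had p = 0.25 in an exact two-sided sign-flip permutation test, also after Benjamini-Hochberg adjustment over the 3 pairs (0.25), the smallest value possible. With only the 2 largest subunits of each enzyme, the log2 ratio of Pol I to Pol III was -0.018, so no order of these enzymes can be given. Polr1a was 1.39-fold above Polr3a, whereas Polr3b was 1.32-fold above Polr1b (0.964-fold with the longest transcript). Pol II led in both places, with Polr2a 4.55-fold above Polr1a and 6.31-fold above Polr3a, and with Polr2b 3.46-fold above Polr1b (2.27-fold with the median length of protein-coding transcripts) and 2.61-fold above Polr3b.

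**Figure D2:**
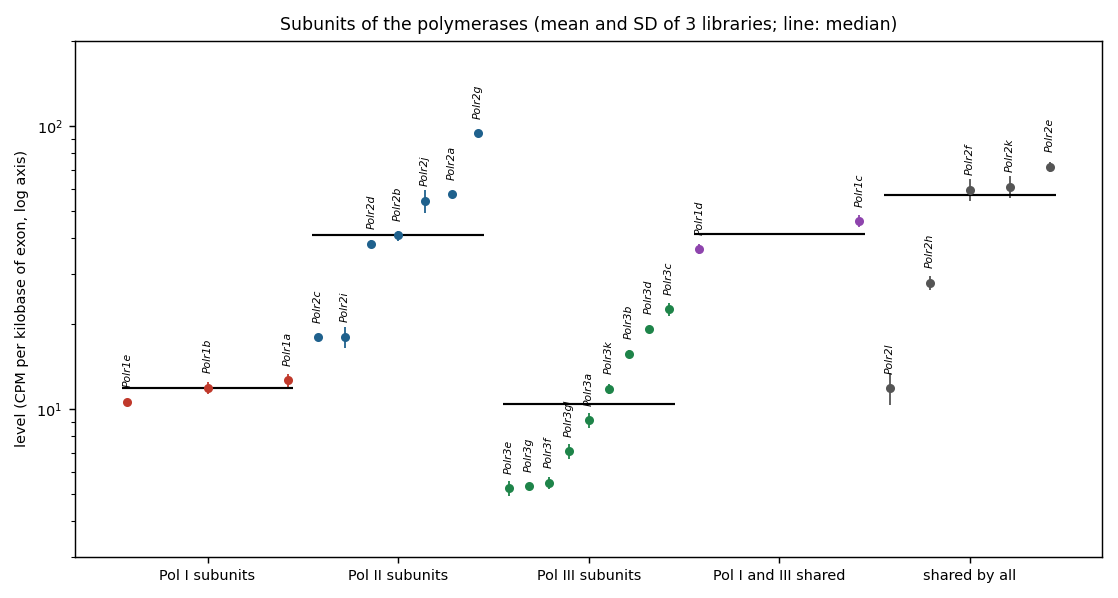
Mean level of the subunits (CPM per kb of exon, log axis; points, with 1 Pol III subunit not drawn) with the SD over 3 libraries (vertical bars) and the median of each group (horizontal lines). The medians of Pol I (11.9) and Pol III (10.4) lie close together and that of Pol II (41.0) lies above them, while the subunits of Pol II and Pol III overlap between 17.9 and 22.5.

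The factors of Pol I were unequal. Ubtf, which codes for the upstream binding factor UBF that coats active ribosomal DNA, had 37.6, 38.8 and 39.6 CPM per kb, a mean of 38.7 ± 1.04. Rrn3, the factor that makes Pol I competent to start, had 29.97, 27.5 and 29.7, a mean of 29.0 ± 1.37. Both were above Polr1a, Polr1b and Polr1e, while Polr1c was above both and Polr1d above Rrn3. The order of Ubtf and Polr1d turned with the longest transcript (54.0 and 82.6 CPM per kb). It also turned with the median length of protein-coding transcripts (79.2 and 95.5). Taf1a, Taf1b and Taf1c code for subunits of SL1, the complex that holds Tbp at the ribosomal DNA promoter, and had 4.20 ± 0.159, 3.97 ± 0.338 and 8.09 ± 0.554 CPM per kb. Taf1a and Taf1b did not differ beyond their spread. Ubtf was 9.20-fold and Rrn3 6.92-fold above Taf1a, each in 3 of 3 libraries, and the latter ratio was 4.34 with the median length of protein-coding transcripts. Exons of Taf1c overlap Dnaaf1 on the other strand over 16.7% of their length. Of the other Pol I factors, Ttf1, a terminator-binding factor, and Taf1d, a further SL1 subunit, had 3.63 and 4.0 CPM per kb. With the median length of protein-coding transcripts Taf1d was at 56.9 CPM per kb, above Rrn3 (35.0). Overlap with genes of the same strand (10.1% of exon length) and shared 50-base windows (14.5%) also make Taf1d uncertain.

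By the length of all exons, Tbp and the Pol III factors were the lowest of the 41 genes together with Taf1a and Taf1b. Tbp (chromosome 17, 15499888 to 15528379, plus strand) had 41.6, 38.3 and 39.4 CPM, or 3.07, 2.82 and 2.90 CPM per kb. Brf1 and Bdp1, which with Tbp make up TFIIIB, the factor that places Pol III, had 4.33 ± 0.0763 and 4.89 ± 0.270 CPM per kb. The place of Tbp depends on its length: the union of its exons was 13576 bases, the longest of the 41 genes, 19% of it overlapped Pdcd2 on the other strand, and Brf1 was 1.48-fold above Tbp by this length but 0.313-fold with the median length of protein-coding transcripts. Bdp1 was 1.13-fold above Brf1 in 3 of 3 libraries, but 0.529-fold with the longest transcript. Brf2, which replaces Brf1 at a class of Pol III promoters, had 5.29 ± 0.213 CPM per kb, and the ratio of Brf1 to Brf2 went from 0.819 to 1.15 with the longest transcript. Orders within TFIIIB are therefore not given.

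The kinases and elongation factors of Pol II were at intermediate to high levels. Supt5, which codes for the DSIF subunit SPT5 and travels with Pol II, had 35.8, 37.4 and 36.3 CPM per kb, a mean of 36.5 ± 0.806. Its partner gene Supt4a had 95.0 ± 2.52, with 21.9% of 50-base windows shared with Supt4b. Cdk7, the kinase of TFIIH, had 15.3 ± 0.395, beside 12.4 ± 0.192 for its cyclin gene Ccnh and 6.6 ± 0.476 for Mnat1, the third member of the kinase module. The order of Cdk7 and Ccnh turned, from 1.24-fold to 0.994-fold with the median length of protein-coding transcripts. Cdk9 and Ccnt1 code for the kinase and cyclin of P-TEFb, which releases paused Pol II. Cdk9 had 23.3, 25.4 and 23.5 CPM per kb and Ccnt1 11.6, 9.89 and 11.2. Replicate 2 was thus the highest for the kinase and the lowest for the cyclin, and Cdk9 was above Ccnt1 by 2.001-fold, 2.57-fold and 2.10-fold, with a mean of 2.22-fold that became 4.78-fold with the longest protein-coding transcript. Ccnt1 was in turn 3.78-fold above Ccnt2, the alternative cyclin, in 3 of 3 libraries.

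Myo1c, whose alternative start gives nuclear myosin 1, a partner of nuclear actin in Pol I and Pol II transcription, was the highest of the 41 genes, except that Polr2f was above it (231 and 225 CPM per kb) with the median length of protein-coding transcripts. It lies on chromosome 11 from 75650504 to 75673910 on the plus strand and had 1051, 1079 and 1012 CPM, a mean of 1047 ± 33.5 (SD, n = 3), or 159 ± 5.09 CPM per kb. Gene counts sum the nuclear and the cytoplasmic isoforms. Actb was 2.55-fold above Myo1c per kb, in 3 of 3 libraries, and 5.18-fold with the median length of protein-coding transcripts.

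The wider machinery was expressed as well. Of 76 further genes of transcription by these polymerases and the mitochondrial enzyme, 76 were above the floor and 75 had a mean of at least 1 CPM, and their median was 12.2 CPM per kb. The 15 TFIID subunit genes had a median of 8.23, from Taf9 at 0.0911 to Taf2 at 19.1. Taf9, with 13, 8 and 7 counts, shares 76.8% of its 50-base windows with Ak6, a gene whose exons overlap it, so its value is uncertain. TFIIA, B, E and F (7 genes) ran from Gtf2a1 at 3.87 to Gtf2f1 at 165 CPM per kb, and TFIIH without Cdk7 (9 genes) from the helicase gene Ercc2 at 5.50 to Gtf2h1 at 32.6. The 12 genes of pausing and elongation had the highest median of these lists, 23.3, from Hexim2 at 1.07 to Supt4a at 95.0. CTD kinases and phosphatases (8 genes) ran from Cdk12 at 5.29 to Ctdsp1 at 50.6, and the 6 genes of polymerase assembly and import from Rpap2 at 4.26 to Gpn3 at 23.3.

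On the Pol III side, the 9 genes of TFIIIA, TFIIIC, Brf2 and Maf1 had a median of 12.0 CPM per kb. Maf1, the repressor of Pol III, was highest among them at 36.6 ± 1.69, above each Pol III subunit. The 5 genes of SNAPc, which serves small nuclear RNA promoters, ran from Snapc1 at 2.23 to Snapc2 at 24.3. The mitochondrial genes Polrmt, Tfam and Tfb2m had 14.7, 13.8 and 5.48. The RNA was selected for poly(A), and transcripts made by Pol III itself had few counts. Rn7sk had 74, 66 and 106 counts, Rmrp 13, 5 and 10, Rpph1 7, 3 and 15, Rny1 0, 3 and 0, and Rny3 0, 0 and 0. The output of Pol I and Pol III was thus not measured by these libraries. A count of 0 allows up to 0.0601, 0.0607 and 0.0673 CPM in replicates 1, 2 and 3.

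How steady the 41 genes were between libraries was tested by a chi-square of each gene's counts against the library sizes, with Benjamini-Hochberg adjustment over the 13814 genes whose count was 10 or more in each library. At an adjusted p threshold of 0.05, 26 of the 41 (63.4%) varied beyond counting error, against 43.8% of all genes tested and 55.05% of the 9132 genes within the range of CPM that the 41 span. This test compares libraries of 1 condition. The varying genes were 2 of 3 Pol I subunits, 2 of 2 shared by Pol I and Pol III, 5 of 5 shared by all, 4 of 7 Pol II subunits, 5 of 10 Pol III subunits, 3 of 5 Pol I factors, 1 of 2 Pol III factors, 3 of 4 Pol II kinases and elongation factors, and Myo1c, while Polr2m and Tbp did not pass. Of the 75 further genes tested, 45 (60%) varied. Replicate 2 decided much of this count, as 9 of the 41 varied without it (Myo1c, Polr1a, Polr1c, Polr2f, Polr2h, Polr2j, Polr2k, Polr3c and Ubtf), beside 12.4% of all genes. Without replicate 1, 16 of the 41 varied, beside 32.9% of all genes.

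The variation was small in size. The median SD of log2 CPM over the 3 libraries was 0.06 for the 41 genes, 0.06 for genes within their range of CPM and 0.08 for all genes tested. Of the 41, 2 had a highest library more than 1.2-fold above the lowest, against 27.7% of all genes, and 16 more than 1.1-fold, against 55.6%. Counting error alone was larger across all genes tested (median SD 0.040 in log2) than in the 41 (0.027). These shares were not counted within the range of CPM of the 41, so they do not show the 41 to be steadier than genes of like level. The 2 genes above 1.2-fold code for small subunits. Polr2l had 916, 1110 and 795 counts, or 18.3, 22.5 and 17.8 CPM, with replicate 2 the highest by 1.26-fold over the lowest and a Benjamini-Hochberg adjusted chi-square p of 1.12e-06. Polr2j had 54.5, 65.7 and 60.5 CPM, and its libraries differed by up to 1.21-fold, with an adjusted p of 8.92e-11 in the same chi-square test. The lowest adjusted p among the 41 was that of Polr2f, 9.42e-25 in this chi-square test, with 142, 169 and 152 CPM. Ccnt1, at 106, 90.5 and 102 CPM, was lowest in replicate 2. The catalytic subunits differed by at most 1.12-fold between libraries. Polr1a had 158, 142 and 150 CPM, Polr2a 413, 401 and 404, and Polr3a 52.6, 50.4 and 56.4.

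**Figure D3:**
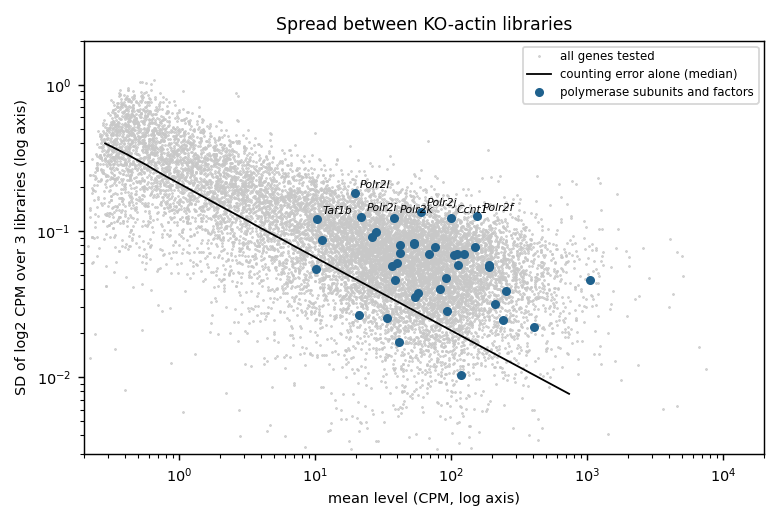
SD of log2 CPM over the 3 libraries (log axis) against mean CPM (log axis) for the 13814 genes tested (grey) and the 41 genes (blue), with the median expected from counting error alone (line). Most blue points lie above the line and within the grey cloud, with Polr2l the highest at 0.18.

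The deviation of replicate 2 followed GC content, the share of G and C in the longest transcript. It is given here as log2 CPM in replicate 2 minus the mean of replicates 1 and 3. Replicate 2 was the highest library for 16 of the 41 genes, against 38.4% of all genes, and the lowest for 19, against 38.7%, with a median deviation of -0.011. Across the 41 genes, which share the libraries and are not independent, Pearson's r with GC content was 0.63 and Spearman's rho 0.64, against 0.35 and 0.49 across all genes tested. All 8 of the genes under 45% GC deviated below 0 (median -0.11) and all 7 at 55% or more deviated above 0 (median 0.10). The same shares were not counted for all genes tested, so these counts are not read as particular to the 41. When library sizes were set within 50 bins of GC content, the median size of the deviation went from 0.10 to 0.05 in the 41 genes. Across all genes tested it went from 0.10 to 0.07. Within these bins 19 of the 41 (46.3%) varied beyond counting error, against 29.9% of all genes. Neither this share nor the correlations were taken for the genes within the range of CPM of the 41. They are thus not read as particular to the 41 either.

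Single genes differed in how far this adjustment moved them. Polr2k, the gene of lowest GC content (38.9%), went from -0.15 to 0.01, and Taf1c, the highest (60.8%), from 0.15 to 0.01. Polr2l kept most of its deviation, 0.31 before and 0.30 after, and so did Polr2f, with 0.20 and 0.17. Cdk9 and Ccnt1, the P-TEFb pair, stayed apart in sign, at 0.12 and 0.12 for Cdk9 and at -0.21 and -0.14 for Ccnt1. The cause of these deviations was not tested.

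**Figure D4:**
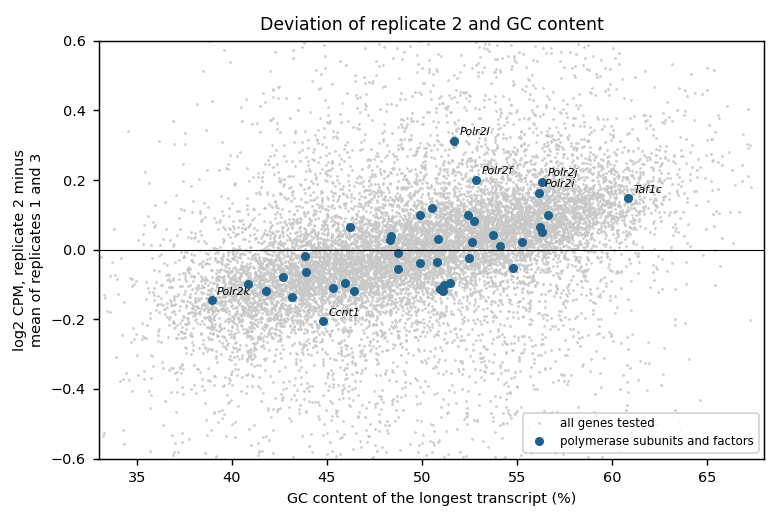
Deviation of replicate 2 (log2 CPM in replicate 2 minus the mean of replicates 1 and 3) against the GC content of the longest transcript (%) for all genes tested (grey; values beyond the axis limits are not drawn) and the 41 genes (blue). Blue points under 45% GC lie below 0 and those at 55% or more lie above it, with Polr2l the highest at 0.31.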

How the data were processed

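Polyadenylated RNA of 3 KO-actin libraries was analysed. For each library the authors deposited unnormalized read counts, 1 value per Ensembl gene. Per the labels (the submitters' processing notes), Trimmomatic, FastQC, HISAT2 and HTSeq were used, with the builds mm10 and GRCm38. The annotation, the strand setting and the handling of reads matching several genes are not given in the sources used here. Gene symbols matched 46005 of 46603 identifiers. Coordinates, exon lengths and GC content came from GENCODE M21 on GRCm38, and promoters from RefSeq on GRCm38.p6. Protein sequences were not used here, so the planned comparison of subunit proteins was not run. TMM scaling was done with edgeR 4.0.16 under R 4.3.3. Size factors of DESeq2 1.42.0 and plain library totals were the other scalings. The remaining steps used Python 3.11.15 with scipy 1.17.1, pandas 2.3.3, numpy 2.4.6 and, for plots, matplotlib 3.10.9. The chi-square test had 2 degrees of freedom, was tested on simulated data and used counts, so it covers counting error only, as does the floor of 3 counts.

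The 41 genes, the pathway lists and the tests were chosen with earlier results of these data known. Named genes were every one of the 41, the highest, the lowest and any below the floor of each pathway list, the markers and Actb. A few others (Ccnh, Mnat1, Ccnt2, Ak6) were named after values were seen, as partners of these. Cd3eap, Twistnb and Znrd1, listed under older symbols that the selection does not match, entered an alternative only of the polymerase comparison, and their levels are given beside those of the 41. Rn45s was not analysed here. The values of 1 Pol III subunit are not reported singly here, though it counts among the 41 genes and in the Pol III median.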

Additional observations from a re-analysis of the deposited data

How the results depend on the processing

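The polymerase comparison was repeated with other gene lengths, a geometric mean, the subunits under older symbols and each replicate left out. Other library scalings were also used, but they cancel in a ratio of levels within the same library and could not change it. Lengths of protein-coding transcripts were added after the data had been seen. The log2 ratio of Pol II to Pol I was 1.504 to 1.80, and that of Pol II to Pol III 1.93 to 2.17, under all of the settings other than the 2 largest subunits. The ratio of Pol I to Pol III was 0.15 to 0.62 under those settings and -0.018 with the 2 largest subunits. Leaving out each replicate gave 1.78 to 1.80, 1.95 to 1.997 and 0.15 to 0.21, and 2 libraries allow no exact p below 0.5. The log2 ratio of Polr3gl to Polr3g was 0.37 to 0.47 on leaving out replicates, 0.21 with the longest transcript and 0.0043 with the median length of protein-coding transcripts.

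Without 1 replicate, 1737 to 4811 genes and 9 to 25 of the 41 varied beyond counting error, with the lowest counts without replicate 2. Other scalings and count filters gave 26 or 27 of the 41 and 5718 to 6070 genes, and GC bins gave 19 and 4116. Mean CPM of the 41 genes moved by at most 0.0305% under other scalings. Each scaling had nearly the same total over the libraries, so a mean over them could move little and this is no check of the scaling. No paired analysis was possible because there was only 1 group.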
